A study of Mus musculus with 158 samples.

Results

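The open chromatin of whole adult mouse lung was examined through its 5 DHS hotspot sets, 1 for each F1 hybrid, out of 20 adult sets in the series. The other 15 sets were the liver, kidney and B cell sets of the same 5 hybrids, and autosomes only were used. The dams of all hybrids were C57BL/6J. The sires were SPRET/EiJ for B6xSPRET, PWK/PhJ for B6xPWK, CAST/EiJ for B6xCAST, C3H/HeJ for B6xC3H and, for B6x129, the strain that the cross is named after, so every set carried C57BL/6J as its maternal genome. No treatment or genetic manipulation was applied. The lung material was all lobes, with tissue of several mice pooled, liver and kidney were taken whole, and B cells were purified from femoral marrow of females by depleting cells bearing CD43 or Mac-1. All mice were killed at 8 weeks of age. A lung-only region was a merged stretch of the genome with a hotspot in all 5 lung sets and in none of the other 15, and a lung-lacking region had one in all 15 other sets and in no lung set. Of 714403 merged regions, 10744 were lung-only (1.5% of all) and 59 were lung-lacking (0.00826%). Since the authors pooled all libraries of a hybrid and tissue before calling hotspots, the hybrid was the repeat, and the p-values below measure the spread between pooled sets.

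DNase I cuts DNA where nucleosomes are displaced, so a DHS marks an active promoter, enhancer or insulator. The lung is built from a gas-exchange epithelium of thin type 1 and surfactant-secreting type 2 cells, an airway epithelium of club, ciliated and basal cells, a dense capillary bed, an elastic mesenchyme and resident immune cells. NKX2-1 (thyroid transcription factor 1) sets the identity of the lung epithelium and directs transcription of surfactant genes. TBX4 and TBX5 are expressed in the lung mesenchyme from its earliest stages. A whole-tissue hotspot is a sum over these cells, and in such a sample fewer cells of a type and less accessibility per cell cannot be told apart.

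The smallest lung sets were B6xC3H with 147871 hotspots, B6xSPRET with 164864 and B6xPWK with 188589, and the largest were B6x129 with 253858 and B6xCAST with 273104, covering 42.7 to 94.5 Mb. Liver sets held 205195 to 286482, kidney sets 181072 to 232440 and B cell sets 76055 to 151020 hotspots. The hotspot files hold no read counts, the read totals that the study lists for these sets were not used here, and absence of a hotspot means that none passed the authors' threshold. The 4 lung markers were all found. The start of Sftpc (surfactant protein C), and a start of Nkx2-1 and of Tbx4, had a hotspot in all 5 lung sets and in no other set. The start of Scgb1a1, the secretoglobin of club cells, was open in all 5 lung sets but also in 2 liver sets.

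The sequences at these sites are shown before their values because the motifs counted further on can be read in them. The promoters of 5 genes whose starts were open in lung sets only are given from 250 bases before to 50 bases after the start, in RefSeq's GRCm38.p6 assembly of the mouse genome, of the same coordinates as the mm10 build of the hotspots. Every base of these 5 windows lay in hotspots of all 5 lung sets, and none lay in a hotspot of another set. Sftpa1 (chr14:41131538-41131837, forward strand) encodes surfactant protein A and Sftpb (chr6:72304360-72304659, forward strand) surfactant protein B. Cxcl15 (chr5:90794284-90794583, forward strand) encodes lungkine, a chemokine of lung epithelium. Chia1 (chr3:106113132-106113431, forward strand) encodes an acidic chitinase, and Lamp3 (chr16:19706316-19706615, reverse strand) a lysosome-associated protein of lamellar bodies. Capitals mark matches, on either strand, to the consensus words CACTTNA (NKX2), TGANTCA (AP-1), GGAATG (TEAD), TGTTTAC (FOX) and CAGCTG (E-box).
Sftpa1: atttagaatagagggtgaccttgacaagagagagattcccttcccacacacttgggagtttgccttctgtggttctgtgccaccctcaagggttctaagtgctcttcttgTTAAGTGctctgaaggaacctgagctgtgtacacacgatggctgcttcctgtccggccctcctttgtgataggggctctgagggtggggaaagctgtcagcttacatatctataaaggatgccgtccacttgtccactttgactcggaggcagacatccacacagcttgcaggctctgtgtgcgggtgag
Sftpb: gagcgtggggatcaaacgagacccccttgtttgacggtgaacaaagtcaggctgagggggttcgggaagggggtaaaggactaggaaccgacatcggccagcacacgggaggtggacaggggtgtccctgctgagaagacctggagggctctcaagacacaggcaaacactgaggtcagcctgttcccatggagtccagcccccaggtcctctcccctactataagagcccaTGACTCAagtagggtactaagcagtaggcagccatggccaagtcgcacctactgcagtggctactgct
Cxcl15: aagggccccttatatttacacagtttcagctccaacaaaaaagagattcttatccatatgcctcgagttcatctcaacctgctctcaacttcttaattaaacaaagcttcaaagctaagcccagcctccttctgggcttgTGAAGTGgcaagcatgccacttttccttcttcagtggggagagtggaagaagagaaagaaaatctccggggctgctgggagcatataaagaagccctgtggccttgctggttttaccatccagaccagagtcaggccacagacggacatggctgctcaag
Chia1: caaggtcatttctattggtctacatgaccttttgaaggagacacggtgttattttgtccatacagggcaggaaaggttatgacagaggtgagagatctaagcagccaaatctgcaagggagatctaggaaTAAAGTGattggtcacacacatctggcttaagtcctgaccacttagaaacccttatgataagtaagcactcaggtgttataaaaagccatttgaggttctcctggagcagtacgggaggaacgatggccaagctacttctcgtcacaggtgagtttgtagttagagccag
Lamp3: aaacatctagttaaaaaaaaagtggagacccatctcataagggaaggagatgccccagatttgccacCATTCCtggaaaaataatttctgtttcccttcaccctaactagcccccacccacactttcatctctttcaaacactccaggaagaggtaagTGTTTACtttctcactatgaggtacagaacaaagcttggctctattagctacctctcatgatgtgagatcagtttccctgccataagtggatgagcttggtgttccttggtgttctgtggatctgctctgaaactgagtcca
The NKX2 word stood in 3 of these windows (Sftpa1, Cxcl15 and Chia1), the AP-1 word in Sftpb, and the FOX and TEAD words in Lamp3. These windows are examples from 14 promoters matched to named genes, and those not shown held no NKX2 word. Several of them, Cldn18 and Nkx2-1 included, held none of the marked words. RefSeq promoters were at hand for 56 of the 132 genes with a lung-only start. Of these 56, 11 (19.6%) held the NKX2 word and 11 (19.6%) the AP-1 word, beside 11.6% and 7.84% of 31396 promoters of all genes, and 5 (8.93%) held the FOX word beside 3.71%. A match is a description of the letters and no proof of a bound site.

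The central 200 bases of 5 lung-only regions are given on the forward strand. They come from the 10 regions whose narrowest hotspot over the 5 lung sets was widest, and are the 5 of these in which the NKX2 or AP-1 word fell within the middle of the stretch shared by all lung sets. The region at Lrig1 (chr6:94889536-94889735) is intergenic and lies 189.504 kb from the start of Lrig1, which encodes a brake on growth factor receptors. The Ift80 region (chr3:68967494-68967693) is intronic, 27.27 kb from that gene's start. The nearest start to the Acvr2a region (chr2:47915167-47915366, intergenic) lies 899.267 kb away. The Qk region (chr17:10361989-10362188) is intergenic at 42.854 kb, and the Ccz1 region (chr5:143992799-143992998) is intronic at 21.877 kb.
Lrig1: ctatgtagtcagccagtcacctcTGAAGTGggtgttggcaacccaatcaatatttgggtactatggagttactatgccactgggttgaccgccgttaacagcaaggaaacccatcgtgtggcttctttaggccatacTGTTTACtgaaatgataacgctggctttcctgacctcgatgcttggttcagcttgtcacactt
Ift80: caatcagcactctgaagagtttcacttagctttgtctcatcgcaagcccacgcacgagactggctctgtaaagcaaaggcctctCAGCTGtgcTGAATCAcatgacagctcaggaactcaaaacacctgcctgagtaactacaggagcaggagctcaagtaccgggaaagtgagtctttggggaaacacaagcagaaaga
Acvr2a: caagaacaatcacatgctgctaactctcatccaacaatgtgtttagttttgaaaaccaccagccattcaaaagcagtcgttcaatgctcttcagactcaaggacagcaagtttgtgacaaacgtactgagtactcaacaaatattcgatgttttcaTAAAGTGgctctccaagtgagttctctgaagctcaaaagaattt
Qk: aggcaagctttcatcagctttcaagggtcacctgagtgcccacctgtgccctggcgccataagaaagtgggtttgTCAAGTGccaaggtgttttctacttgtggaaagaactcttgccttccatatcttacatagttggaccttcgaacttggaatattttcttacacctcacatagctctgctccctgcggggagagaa
Ccz1: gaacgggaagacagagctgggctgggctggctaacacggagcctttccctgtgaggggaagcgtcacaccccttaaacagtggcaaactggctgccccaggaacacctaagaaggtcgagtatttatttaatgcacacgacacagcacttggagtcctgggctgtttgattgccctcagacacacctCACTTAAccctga
The NKX2 word stood in 4 of the windows of the 10 regions, with a FOX word beside it at Lrig1, and the Ift80 window held AP-1 and E-box words. The 5 windows not shown held neither the NKX2 nor the AP-1 word.

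Lung-only regions were fewer than liver-only (21898) or kidney-only (14481) regions and more than B cell-only regions (2433). Sets with fewer hotspots limit such counts. A further 7686 regions had hotspots in 4 lung sets and in none of the other 15, and in 4804 of these (62.5%) the set without a hotspot was B6xC3H, the smallest lung set. Another 3138 regions had hotspots in all 5 lung sets and in 1 of the other 15, most often the B6x129 liver set (643 regions). Regions seen in a single lung set and nowhere else numbered 84055. In all, 88591 regions had hotspots in all 5 lung sets, and 27339 were open in all 20 sets.

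**Figure D1:**
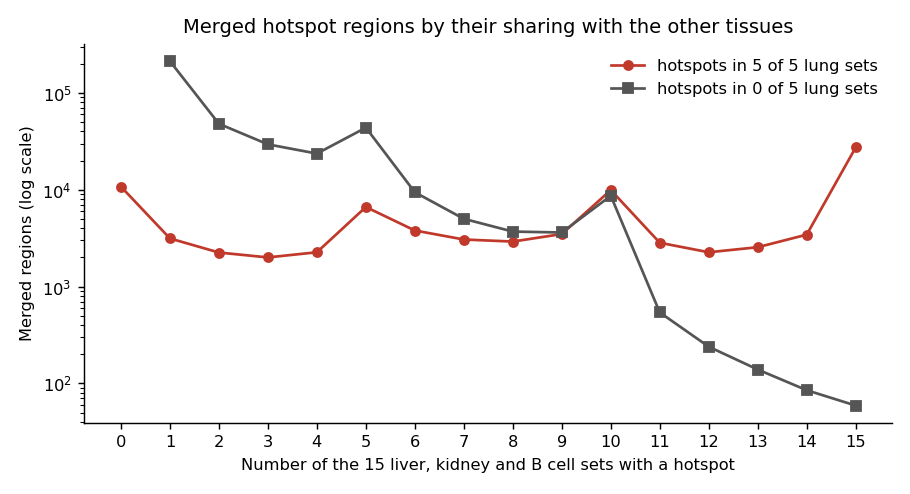
Number of merged regions (log scale) against the number of liver, kidney and B cell sets, of 15, with a hotspot in the region, for regions open in 5 lung sets (circles) or in 0 (squares). Regions open in 5 lung sets were most frequent at 0 (10744) and at 15 (27339) other sets, while regions open in 0 lung sets fell from 8655 at 10 other sets to 59 at 15.

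Most lung-only regions lay away from promoters, as did most merged regions of any kind. Only 2.01% were centred within 1 kb of a protein-coding start, 49.7% lay in introns, 44.5% were intergenic and 3.79% were exonic. Of all merged regions, 4.40% were at promoters, 43.3% in introns and 48.8% intergenic. Of the regions open in all 20 sets, 35.8% were at promoters. Lung-only regions overlapped a hotspot of mouse embryonic stem cells in 4.11% of cases and a CTCF hotspot of those cells in 1.31%, against 89.0% and 67.2% of regions open everywhere. For all merged regions these shares were 9.47% and 7.95%. CTCF is the insulator protein at loop anchors and domain borders. Liver-only and kidney-only regions had similar places, with 1.98% and 2.19% at promoters and 1.96% and 1.65% over CTCF hotspots. The median width of a lung-only region was 414 bp, and its hotspots had a median width of 240 bp in B6xC3H, 300 bp in B6xSPRET, 318 bp in B6xPWK, 352 bp in B6x129 and 374 bp in B6xCAST.

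The 10 widest lung-only regions, ranked by their narrowest hotspot, lay at Lrig1, Slc44a3, Shh, Irf8, Ift80, Acvr2a, Cbr2, Qk, Ccz1 and E030025P04Rik. Values of single lung sets are given from here on in the fixed order B6x129, B6xC3H, B6xCAST, B6xPWK, B6xSPRET. The Lrig1 region (chr6:94888664-94890634) was covered over 1771, 1629, 1734, 1783 and 1589 bp. It was nearly as wide in the smallest lung set as in the largest, and it overlapped a CTCF hotspot of embryonic stem cells. The Shh region (chr5:28457876-28460928) lies in the body of Shh, the hedgehog ligand of airway epithelium, and was covered over 3003, 1714, 2952, 1401 and 1391 bp. It was wider in B6x129 and B6xCAST, the largest sets, and belonged to the 4 of the 10 regions that also overlapped an embryonic stem cell hotspot. The Cbr2 region (chr11:120743927-120745043), 12.371 kb from the start of a carbonyl reductase gene of lung, was covered over 992 to 1111 bp in the 5 sets.

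Each lung-only region was assigned to the gene body it lay in or to the nearest protein-coding start. The 15 genes with most regions were Fgfr2 with 21, Auts2 with 17, Mecom with 16, Nckap5 and Atp2b1 with 14 each, Gm20388, Rbms3 and Pard3b with 13 each, Ltbp1, Sox9 and Slit3 with 12 each, and Cacna1c, Klf12, Alcam and Ptprm with 11 each. These last 4 were taken from 13 genes with 11 regions by the summed width of the regions. Many of these are long genes. A region inside an annotated body was credited to that gene even where the start of another gene was nearest. For example, 1 region assigned to Gm20388 had Irf8 as its nearest start. The counts of the longest bodies, Fgfr2 included, may thus hold regions of other genes. The annotated bodies of Fgfr2 and Gm20388 span 2960.9 and 4434.9 kb, and per 100 kb of body they held 0.709 and 0.293 regions. Atp2b1, a plasma membrane calcium pump, held 12.5 per 100 kb, Alcam, a cell adhesion molecule, 5.36, and Ltbp1, a latent TGF-beta binding protein of the matrix, 3.10. The 12 regions of Sox9, a transcription factor of the distal lung bud, lay around a body of 5.537 kb. Of 5284 genes with a lung-only region, 2920 had 1.

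Lung-only regions were also counted in windows of 500 kb. A window with any lung-only region held a median of 3, in 3326 of 4810 windows. Among the richest, windows at Frmd6 and Tmx1 (chromosome 12) and at Limch1 and Apbb2 (chromosome 5) held 16 each. Those at Qk, at Slc12a2, at Ptgfrn and Igsf3, at Dcun1d4 and Sgcb, and at Tspan11 and Prmt8 held 14 each. The windows of Foxa2, a pioneer factor of foregut endoderm, and of Mecom, a zinc finger regulator, held 13 each. Regions of any kind numbered 205 and 254 in the windows with 16 and 176 to 234 in those with 14. They numbered 211 and 214 in the Foxa2 and Mecom windows. Over all merged regions 1.5% were lung-only. Gathering beyond the number of regions in a window was not tested.

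At gene starts, 132 of 20722 protein-coding genes (0.637%) had a start within 500 bp of a hotspot in all 5 lung sets and in none of the other 15. Liver had 302 such genes, kidney 194 and B cells 26. For 58 of the 132 no start was open in any other set, and 74 had another start that was. Ranked by the narrowest of the 5 lung hotspots, the 3 widest openings were at Sftpa1, Cldn18 and Sftpb. Within the window of 500 bp on each side of its start, Sftpa1 was covered over 720, 793, 833, 901 and 759 bp. Cldn18, the claudin that seals alveolar epithelium, was covered over 986, 668 and 933 bp, the full window in B6xPWK and 662 bp. Sftpb was covered over the full window in B6x129 and B6xCAST and over 650, 752 and 810 bp in the others. These starts were open over most of the window in every lung set. Cxcl15 had 566 to 828 bp, Chia1 553 to 645 bp, Sftpd (surfactant protein D) 473 to 654 bp, Sftpc 462 to 745 bp and Lamp3 411 to 523 bp. The B6xC3H set had the lowest value at 12 of the 20 widest starts.

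The other starts among the 20 widest belonged to Cystm1, Pde4d, BC030870, Bmp5, 2610028H24Rik, Atp2b2, 6430548M08Rik, Kif13a, Rabgap1l, Ppp1r32, Usp4 and Kcnip2. Bmp5 encodes a bone morphogenetic protein and was covered over 531 to 679 bp. Pde4d, a cAMP phosphodiesterase with many promoters, was covered over 595 to 689 bp at a start specific to lung while another of its starts was open elsewhere. The same held for Cystm1, Atp2b2, 6430548M08Rik, Kif13a, Rabgap1l, Usp4 and Kcnip2. Of the genes in the lists described further on, Nkx2-1, Tbx4, Limch1, Mfap4, Mfap5 and Fgfr3 also had a lung-only start. Limch1 is an actomyosin regulator, Mfap4 and Mfap5 are microfibril proteins, and Fgfr3 is a fibroblast growth factor receptor.

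**Figure D2:**
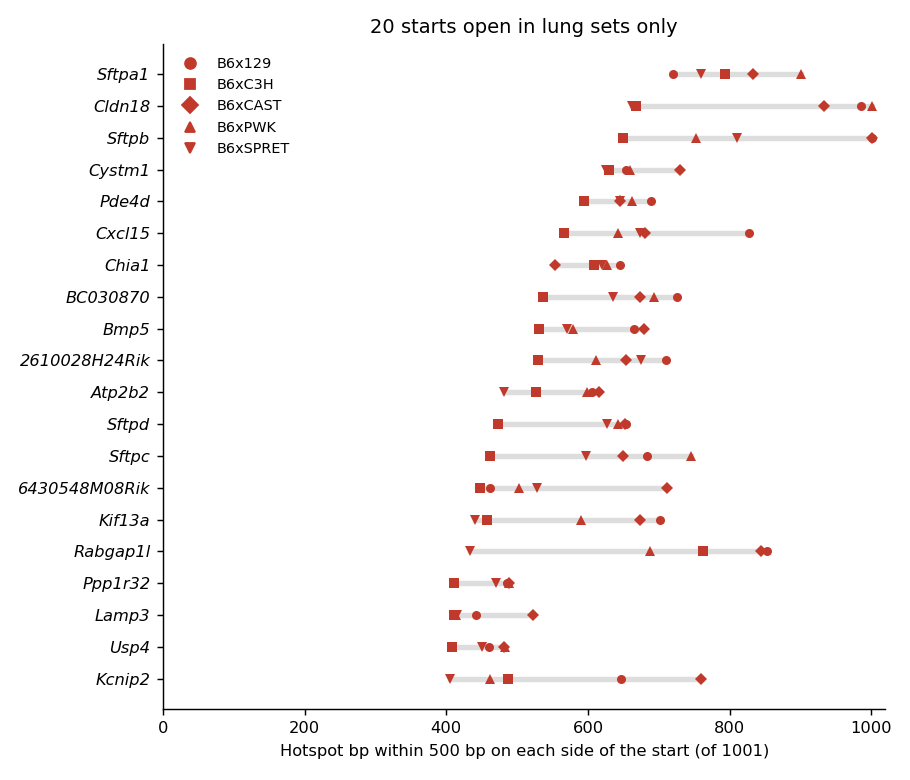
Hotspot bp within 500 bp on each side of the start for the 20 widest starts open in lung sets only, with 1 symbol per hybrid and a bar over the range. Sftpa1 leads with 720 to 901 bp, Lamp3 has 411 to 523 bp, and no liver, kidney or B cell set has a hotspot there.

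RNA-seq gave a readout that the choice of these genes did not use. It comprised 4 lung libraries (1 of B6xPWK, 2 of B6xSPRET and 1 of B6xC3H) and 13 of the other tissues. The deposited expected counts summed to 380115 to 387504 in lung and 283725 to 809337 over all 17 libraries, a sum that need not be the number of reads sequenced, and a TPM of 0 can be a missed transcript. Of the 132 genes, 107 were listed above 0 in some library, and 14 of these (13.1%) had a higher TPM in all 4 lung libraries than in any of the other 13. Among all genes listed above 0, 697 of 16468 (4.23%) did so. The highest mean TPM was in lung for 52 of the 107 genes (48.6%), beside 33.8% of all genes listed above 0. Of the 58 genes with no start open elsewhere 8 separated the lung libraries in this way, and of the other 74 genes 6 did. Sftpc reached a TPM of 69.1 in B6xPWK, 182 and 97.8 in B6xSPRET and 248 in B6xC3H, and was listed at 0 in the 13 other libraries. Sftpa1 stood at 11.8, 31.0, 25.55 and 33.8 in the same order and was at 0 elsewhere. Cxcl15 had 9.21, 12.3, 13.3 and 8.32, also with 0 elsewhere. The 4 lung libraries did not overlap the others at these genes. Chia1, Kcnip2 and Ppp1r32 were listed at 0 in all 17 libraries despite an open start, and Tbx4 was listed at 0 to 1.03 in lung and up to 2.58 elsewhere.

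Lung-lacking sites were rare. The 59 lung-lacking regions compared with 163 lacking in liver, 316 in kidney and 8329 in B cells. Their median width was 1099 bp, 64.4% were intronic, 30.5% intergenic and 3.39% at promoters. The number rose when the demand was relaxed: 85 regions had no lung hotspot and 14 of the 15 others, and 69 had all 15 others and 1 lung set. Regions shared by all 5 liver and all 5 kidney sets and by no lung set were far more common, at 8833, and 8138 of these had no B cell hotspot either. Regions open in all 5 B cell sets and no lung set numbered 3413.

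The 10 lung-lacking regions with the widest narrowest hotspot included those nearest to Mcur1, Itga9, Igfbp7, Cdhr5, Lrrn3, Dnase1, Ass1, Bcat1 and Arhgap25. The Ass1 region (chr2:31462699-31465722), 5.996 kb from the start of argininosuccinate synthase of the urea cycle, was covered over 1752 to 3017 bp in liver, 994 to 1633 bp in kidney and 254 to 761 bp in B cells. B cells had the narrowest hotspots there. At Mcur1 (chr13:43548305-43550354, intronic), a regulator of mitochondrial calcium uptake, the 3 tissues overlapped, with 675 to 1249 bp in B cells, 481 to 1048 bp in liver and 499 to 1183 bp in kidney. Only 2 genes (0.00965%), Cdhr5 and Slc17a4, had a start open in all 15 other sets and no start open in any lung set. Genes with another start open in a lung set were not counted. Cdhr5 encodes a cadherin of the brush border and Slc17a4 an organic anion transporter. The Cdhr5 start was covered over 315 to 788 bp in liver, 629 bp to the full window in kidney and 303 to 555 bp in B cells. The Slc17a4 start was covered over 918 bp to the full window, 639 to 998 bp and 224 to 415 bp in the same tissues. Both were listed at a TPM of 0 in the 4 lung libraries, but so was Cdhr5 in 6 and Slc17a4 in 3 of the 13 others, where they reached at most 3.07 and 11.77. The lung-lacking region in an intron of Itga9, an integrin subunit, is shown as an example by the 200 bases at the middle of the stretch shared by all 15 sets (chr9:118662553-118662752, forward strand), with the same words in capitals.
Itga9: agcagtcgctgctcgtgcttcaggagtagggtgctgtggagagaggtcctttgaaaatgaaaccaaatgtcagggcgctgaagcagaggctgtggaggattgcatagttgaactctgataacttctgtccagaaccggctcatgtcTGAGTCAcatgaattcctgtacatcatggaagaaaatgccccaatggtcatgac
The AP-1 word was the single match there. With a hybrid left out, only 12 other sets had to be open and 4 lung sets closed, so the count of 59 could only stay or rise. It came to 105 without B6xC3H, 105 without B6xCAST and 107 without B6xSPRET. Dependence on a single hybrid cannot be read from this rise.

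Hotspot length over whole loci gave a test across genes. For each of 18129 protein-coding loci, the gene body with 10 kb on each side, the bp under hotspots were scaled to the mean covered length of the 20 sets (71.2 Mb), log2-transformed after adding 250 bp, and lung was compared with the mean of the other 3 tissues by limma. At an adjusted p threshold of 0.05, 4123 loci (22.7%) had more hotspot length in lung and 4817 (26.6%) less. In 552 (3.04%) all 5 lung sets lay above all 15 others, and in 366 (2.02%) below. The median log2 difference over all loci was -0.06. Without scaling, 1995 of 18171 loci had more hotspot length in lung and 3315 less. A locus holds the hotspots of its close neighbours as well, so 1 region can count for several genes.

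At Sftpc the scaled length in lung was 9480.3, 4603.8, 10676, 12339 and 4179.1 bp, against 1351.7 to 4705 bp (median 2761.9) in the 15 other sets. The B6xC3H and B6xSPRET lung sets lay below the highest liver set, so the groups overlapped, and the log2 difference was 1.45 ± 0.18 (SE, adjusted p = 6.1e-07). At Nkx2-1 the lung values were 9455.1, 2997, 5708.2, 4204.1 and 5645.9 bp in the same order, and the others lay between 302.34 and 816.37 bp (median 489.97). All 5 lung sets lay above all others, with a log2 difference of 2.91 ± 0.17 (adjusted p = 1.4e-11). At Scgb1a1 lung had 4505.5, 5437.9, 3867.2, 5335.6 and 4743.9 bp and the others 912.69 to 3733.5 bp (median 1565.9). The groups did not overlap, though liver came close, and the difference was 1.24 ± 0.12 (adjusted p = 3.3e-08). At Tbx4 lung had 3503.8, 4287.4, 4059.4, 4086.4 and 3549.4 bp and the others 328.6 to 2891.7 bp (median 1200.4). Lung again lay above all, with a difference of 1.55 ± 0.21 (adjusted p = 2.7e-06).

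**Figure D3:**
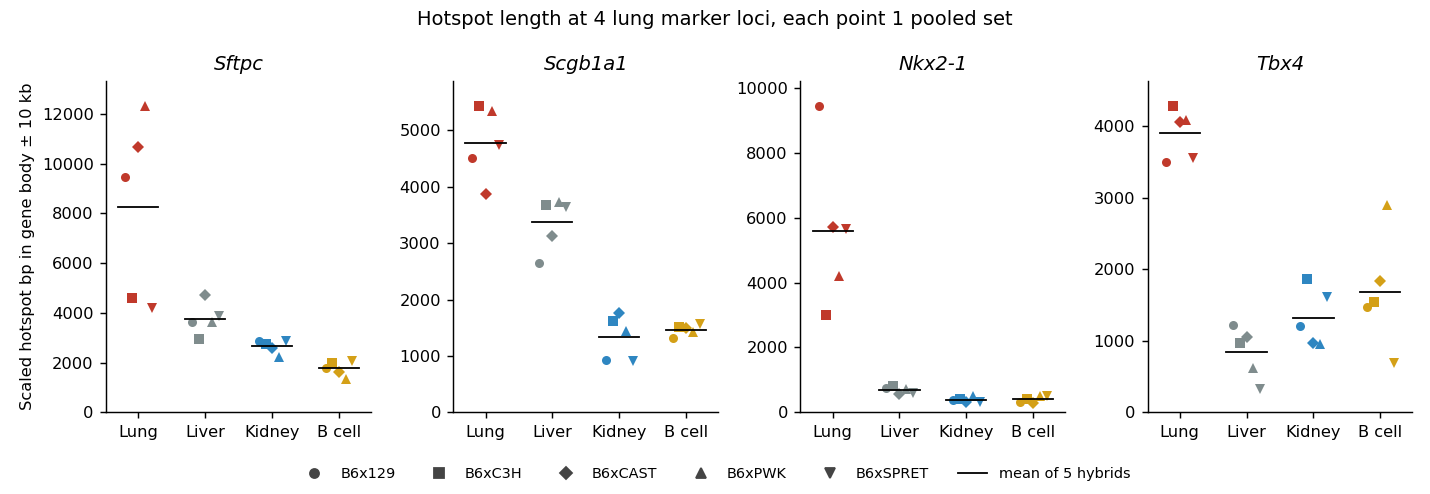
Scaled hotspot bp in the gene body with 10 kb on each side for Sftpc, Scgb1a1, Nkx2-1 and Tbx4, each point 1 pooled set (symbol, hybrid) and each line the mean of 5 hybrids. Lung sets lie above all others at Scgb1a1, Nkx2-1 and Tbx4, while at Sftpc 2 of 5 lung sets fall below the highest liver set at 4705 bp.

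The gene lists were read against this background, in the same contrast (log2 difference ± SE). Over all loci 22.7% were higher in lung and 26.6% lower. The lists were chosen with earlier results of these data known, so their counts and medians are a description and no test. The contrast is with the mean of 3 tissues, so a gene could be called higher while 1 of them exceeded lung. This was so for 40 of the 112 list genes called higher, by the means of the tissues. Epithelial genes of the lung rose in part. Of 10 type 2 cell genes, 6 rose and 0 fell, with a median log2 difference of 1.42 beside -0.06 over all loci. Sftpb (2.48 ± 0.21) and Lamp3 (1.96 ± 0.17) had all lung sets above all others, and Sftpd (2.42 ± 0.23), Sftpa1 (1.65 ± 0.20) and Slc34a2, the sodium phosphate carrier of type 2 cells (1.38 ± 0.33), rose with overlap. The mean at Sftpa1 was higher in liver (5683.1 bp) than in lung (3507.8 bp), and the contrast was positive because kidney (532.39 bp) and B cells (43.435 bp) were low. Abca3 (-0.20 ± 0.09), Napsa (0.11 ± 0.14), Lpcat1 (0.04 ± 0.16) and Etv5 (-0.04 ± 0.10) did not pass. Of 9 type 1 cell genes 7 rose, with a median of 1.02. They included Pdpn (podoplanin, 2.24 ± 0.27), the water channel Aqp5 (2.06 ± 0.15), Cav1 (caveolin-1, 1.38 ± 0.16), Emp2 (1.32 ± 0.11) and Clic5 (1.02 ± 0.12). Ager, the receptor by which type 1 cells are often marked, stood at 0.12 ± 0.12 and did not pass, although its TPM was 41.35 to 101 in lung and at most 13.04 elsewhere.

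Of 5 club cell genes, Scgb3a2 (1.93 ± 0.16), Scgb3a1 and Scgb1a1 rose, and all 3 had lung above all others. Cyp2f2, a cytochrome P450 of club cells, stood at 0.14 ± 0.18, with a mean of 8846.5 bp in liver against 3341.4 bp in lung. Ciliated cell genes went both ways, with 2 of 7 higher (Tppp3, 1.71 ± 0.14, and Dynlrb2, 0.71 ± 0.11) and 2 lower (Dnah5, -0.99 ± 0.33, and Rsph1, -0.41 ± 0.13, of opposite sign with a flank of 50 kb). Their median was -0.04, and of all loci 22.7% were higher and 26.6% lower. The regulator of ciliation Foxj1 stood at -0.15 ± 0.13 and did not pass. Of 4 basal cell genes, Trp63 (1.21 ± 0.20) and Krt14 (0.83 ± 0.21) rose and Ngfr fell (-0.44 ± 0.13). At Trp63 the mean was 7457.4 bp in lung, 7660.6 bp in liver and 6397.6 bp in kidney, and B cells were low at 522.16 bp.

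In the endothelial and mesenchymal lists most genes rose. Of 16 endothelial genes 14 rose and 1 fell, Calcrl (-0.64 ± 0.16), with a median of 0.92. At Tek, the angiopoietin receptor, lung had 9122.1, 10073, 9738.2, 10267 and 11874 bp and the others 0 to 7518.2 bp (median 2893.2), a difference of 2.32 ± 0.21. Gpihbp1, which anchors lipoprotein lipase on capillaries (1.80 ± 0.22), and the claudin Cldn5 (1.49 ± 0.18) also had all lung sets above the rest. Summed over the 16 loci, hotspot length was 73554 to 79575 bp in lung, 61129 to 73828 bp in kidney and 27766 to 46674 bp in liver. The highest kidney sum thus overlapped the lowest lung sum. With unscaled lengths 8 of the 16 genes rose in place of 14. Of these 14, 7 had a higher mean in another tissue than in lung. Of 14 mesenchymal genes 11 rose and 1 fell, Inmt (-0.38 ± 0.13, positive when hotspots were counted in place of their length), with a median of 1.56. Wnt2 (2.63 ± 0.21), Tbx5 (2.58 ± 0.25), Tcf21 (2.19 ± 0.23), Col3a1 (1.94 ± 0.18), Fgf10 (1.91 ± 0.28) and Foxf1 (1.67 ± 0.13) led. Tbx5 varied among hybrids, from 1894.8 bp in B6xC3H to 10732 bp in B6xPWK. Pdgfra (0.10 ± 0.22) and Pdgfrb (0.07 ± 0.20) did not pass. Of 7 smooth muscle genes 5 rose, among them Lmod1 (0.93 ± 0.12) and Myh11 (0.79 ± 0.11), and Cnn1 fell (-0.50 ± 0.10). With unscaled lengths 2 of the 7 rose, and 4 of the 5, Lmod1 included, had a higher mean in another tissue. Cardiac muscle genes, which pulmonary veins can carry, showed 2 higher and 1 lower of 6 (0 higher unscaled). Of all loci 22.7% were higher and 26.6% lower. Msln alone rose of 3 mesothelial genes (1.94 ± 0.25), and its sign turned with a flank of 50 kb.

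Immune genes were mixed, beside 22.7% of all loci higher in lung and 26.6% lower. In lists of this size, counts near those shares are not read as a result about the cell type. Of 11 macrophage genes 4 rose (2 unscaled), led by Lyz2 (lysozyme, 1.55 ± 0.24) and Chil3 (1.09 ± 0.18), and Csf1r fell (-0.77 ± 0.16). Of 4 neutrophil genes tested Cxcr2 (1.42 ± 0.22, of opposite sign with a flank of 50 kb) and S100a8 (0.58 ± 0.20) rose, and 1 did so unscaled. Of 12 T and NK cell genes 2 rose (1 unscaled) and 2 fell, and of 8 B cell genes 0 rose and 4 fell (Blk, Pax5, Ebf1 and Cd22). Summed hotspot length over the 8 loci was 22621 to 36868 bp in lung, 16989 to 25617 bp in liver, 27371 to 29981 bp in kidney and 137740 to 172920 bp in B cells, so lung overlapped both liver and kidney. The starts of all 8 genes were open in 4 or 5 lung sets, while 5 of the 8 were open in 0 kidney sets. The part of immune cells in the lung-only regions was not tested.

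Developmental regulators of the lung were mostly higher. Of 20 lung transcription factors 15 rose and 0 fell, with a median of 1.002. After Nkx2-1 came Foxa1 (1.90 ± 0.37), Twist2 (1.45 ± 0.15), the epithelial factor Grhl2 (1.38 ± 0.22), Foxp2, Foxa2 (1.20 ± 0.27) and Tbx3 (1.18 ± 0.15). Grhl2 had 9242.6, 9419, 8568.7, 8975.2 and 8356.9 bp in the lung sets against 617.48 to 6983.9 bp elsewhere, and Nkx2-1, Klf5 and Grhl2 were the 3 that lay above all other sets. Foxa2 had a higher mean in liver (9161.1 bp) than in lung (4481 bp), as did Tbx3 (7281.1 against 5364 bp), and 6 of the 15 had a higher mean in some other tissue. Gata6 (0.47 ± 0.52) and Foxp1 (-0.00 ± 0.07) did not pass. Of 31 signalling genes 22 rose and 1 fell, Gli1 (-0.43 ± 0.13, of opposite sign with a flank of 2 kb), with a median of 0.71. Of the 22, 9 had a higher mean in another tissue. The hedgehog effectors Gli3 (2.39 ± 0.19) and Gli2 (1.85 ± 0.15), the growth factor Fgf7 (1.58 ± 0.20), the ligand Shh (1.47 ± 0.15) and the receptor Fzd2 (1.46 ± 0.29) were the largest beside Wnt2, Fgf10 and Bmp4 (1.56 ± 0.31). Shh was also read in RNA, at a TPM of 21.3 to 34.7 in lung and at most 2.12 elsewhere. Of 15 elastic matrix genes 11 rose and 0 fell, with a median of 0.77. They included the cross-linking enzymes Lox (1.90 ± 0.19) and Loxl1 (1.43 ± 0.15), the microfibril gene Fbn1 (1.74 ± 0.16), Fbln5 (1.51 ± 0.26), Ltbp2 (1.36 ± 0.10) and elastin itself, Eln (0.77 ± 0.14).

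**Figure D4:**
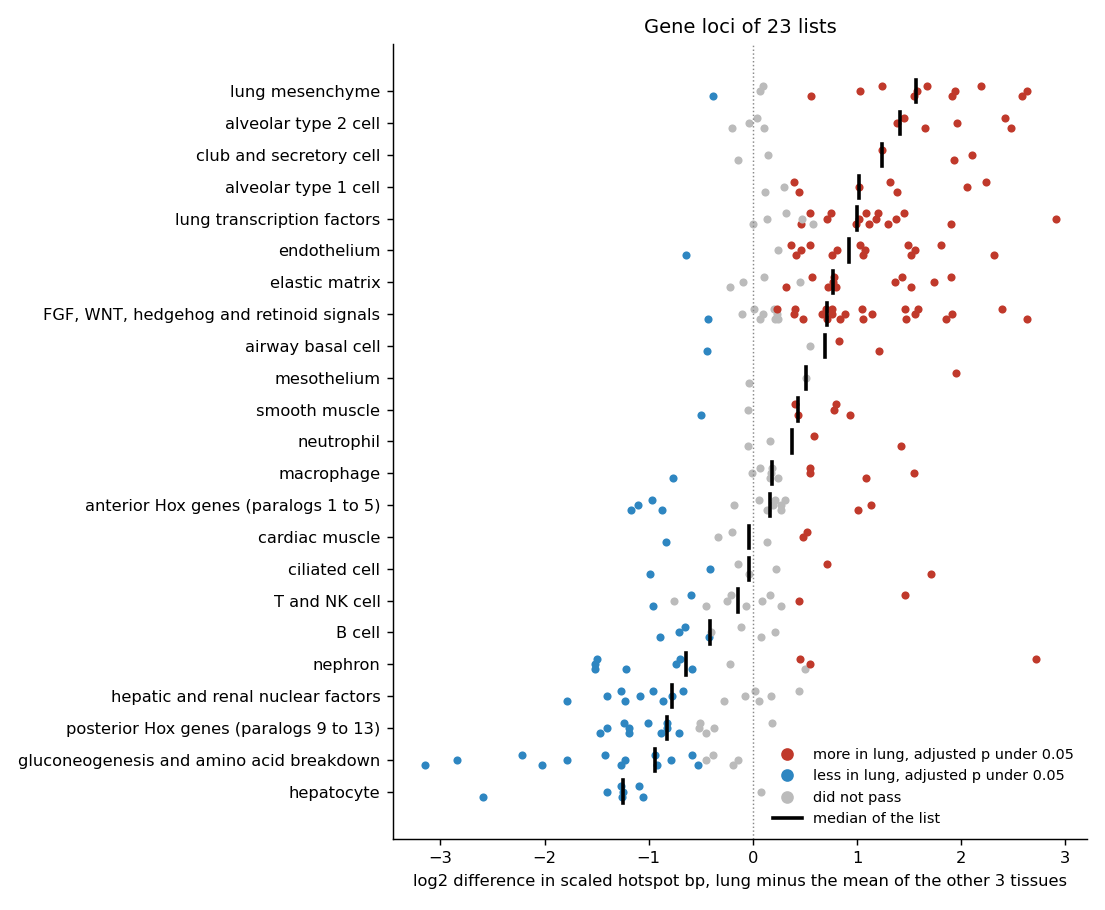
log2 difference in scaled hotspot bp, lung minus the mean of the other 3 tissues, for each tested gene of 23 lists (points, coloured by the limma call at adjusted p 0.05) with the median of each list (bar). Lung mesenchyme (1.56), type 2 cell (1.42) and club cell (1.24) lists have the highest medians and the hepatocyte list (-1.25) the lowest.

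Genes of liver and kidney were mostly lower in lung than in the mean of the other tissues, but B cells were lower still in 3 of the 4 lists. Of 8 hepatocyte genes 7 fell, with a median of -1.25, among them Ttr (-2.59 ± 0.22) and Hnf4a (-1.40 ± 0.10). The starts of Apoa1, Ttr, Hnf4a, Cps1, Cyp7a1, Serpina1a and Tat were open in 0 lung sets. Summed over the 8 loci, hotspot length was 7183.3 to 8981.6 bp in lung, 86852 to 110950 bp in liver, 13828 to 19633 bp in kidney and 2824.5 to 4932.2 bp in B cells. Of 12 nephron genes 7 fell and 3 rose (1 unscaled), and their sums overlapped between lung (26676 to 33168 bp) and B cells (22975 to 32388 bp). The 3 were Aqp2 (2.71 ± 0.17), whose window reaches the neighbouring Aqp5, Slc12a1 (0.54 ± 0.14) and Lrp2 (0.45 ± 0.14). The start of Aqp2 was open in 0 lung sets. Of 15 hepatic and renal nuclear factors 9 fell and 0 rose, among them Hnf4g (-1.78 ± 0.29). Of 17 genes of gluconeogenesis and amino acid breakdown 13 fell and 0 rose, with a median of -0.94. The sums of the nuclear factors were 64258 to 70623 bp in lung and 37026 to 41657 bp in B cells, and those of the gluconeogenesis list 23407 to 26946 bp and 17481 to 20061 bp.

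Hox genes, which pattern the body axis, were read in posterior and anterior groups of their clusters. Of 15 posterior genes (paralogs 9 to 13) 10 fell and 0 rose, with a median of -0.83, led by Hoxa10 (-1.47 ± 0.16), Hoxa11 (-1.40 ± 0.30) and Hoxa9 (-1.24 ± 0.17). Of 14 anterior genes (paralogs 1 to 5) 2 rose, among them Hoxa2 (1.13 ± 0.27), and Hoxc4, Hoxc5, Hoxd3 and Hoxd4 fell, with a median of 0.17. Those that rose had a higher mean in another tissue than in lung. Windows of neighbouring Hox genes can overlap, so the same bp can enter several of these calls and sums. Kidney had the largest summed hotspot length at both groups, with 75099 to 121680 bp over the posterior loci. The posterior sums were 9659.6 to 18235 bp in lung, 11185 to 13945 bp in liver and 13874 to 36723 bp in B cells. Lung thus spanned the range of liver. The difference between anterior and posterior genes was not tested.

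Over all loci, named genes were the 15 with the largest difference in each direction among called loci whose lung sets did not overlap the others and whose mean was at least 1000 bp in lung (more in lung) or in each other tissue (less in lung). The 15 with more in lung were Gjb6, AC141477.1, Klk13, Tecrl, Ppp1r14c, Nkx2-1, Samd3, Fam189a2, Zfp474, Cldn18, Sh3rf2, Esm1, Wnt2, Rasef and Tbx5. At Gjb6, connexin 30, lung had 3333.8, 1868.1, 2207.9, 2650.2 and 1763.2 bp and the others 0 to 166.96 bp (median 0), a log2 difference of 3.22 ± 0.18 (adjusted p = 8.1e-12). The locus held 5 lung-only regions, and no liver set had a hotspot in it. At Esm1, endocan of endothelial tip cells, lung had 3178.6, 4194.2, 2552.3, 3473.3 and 3703.3 bp and the others 0 to 2028.4 bp (median 199.13), a difference of 2.64 ± 0.17. It held no lung-only region, and the mean in kidney was 1583.9 bp. At Cldn18 lung had 4382.4, 4663.7, 3658.5, 5770.2 and 4319 bp and the others 0 to 3190.8 bp (median 164.25), a difference of 2.75 ± 0.33. The window of AC141477.1 reaches the start of 2610028H24Rik, which was open in lung sets only.

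The 15 with less in lung were Pck1, Miox, Myo7b, Havcr1, Serpinf2, Slc6a20b, Chrna2, Timd2, Ass1, Gm33543, Reln, Gpc5, Coq8a, Gm21973 and Slc17a1. Pck1, the gatekeeper enzyme of gluconeogenesis, had 483.08, 769.24, 419.73, 337.5 and 457.98 bp in lung and 1166.7 to 11546 bp elsewhere (median 7390.9), a difference of -2.84 ± 0.19 (adjusted p = 6.8e-11). That every lung set lay below all others was the rule by which these loci were chosen, so it is no further result. The p-values of the named loci, in both directions, come from the same values that made the choice. Miox, the inositol oxygenase of kidney, had 0, 0, 150.71, 0 and 160.29 bp in lung and 668.34 to 3766.1 bp elsewhere (-2.65 ± 0.21). Reln, a secreted matrix glycoprotein, had 4026.8, 1022.3, 1990.1, 2476.6 and 1716.2 bp in lung and 4985.2 to 10359 bp elsewhere (-1.79 ± 0.16). The difference was -1.98 ± 0.11 at Chrna2, -1.67 ± 0.11 at Slc17a1 and -1.92 ± 0.16 at Ass1.

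Of the 15 genes with most lung-only regions, 13 had more hotspot length in lung over the whole locus, beside 22.7% of all loci. The lung-only regions by which the genes were chosen are part of that length, so nothing is read from this count. Among the 13, Auts2, Atp2b1, Sox9, Slit3 and Alcam had a higher mean in another tissue than in lung. At Slit3 the mean was 23387 bp in kidney and 16715 bp in lung. Cacna1c, a voltage-gated calcium channel, had 32546, 28780, 33432, 35050 and 30950 bp in lung and 5486.7 to 17778 bp elsewhere (median 12516), a difference of 1.50 ± 0.07. Nckap5 (1.54 ± 0.16), Ltbp1 (1.44 ± 0.12) and Ptprm, a receptor phosphatase of endothelium (1.35 ± 0.24), likewise had lung above all others. Mecom (1.77 ± 0.12) and Rbms3 (1.83 ± 0.18) rose with overlap. Klf12 went the other way, with 11 lung-only regions and less total length in lung (-0.44 ± 0.08), and Gm20388 did not pass (0.03 ± 0.05).

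Motifs were counted in hotspots that met no hotspot of the other 3 tissues in the same hybrid. The lung sets held 44356 to 99920 such hotspots. Of 26 words, 11 (42.3%) were denser in lung than in the other 15 sets and 1 (3.85%) was sparser (two-sided exact permutation test over the 20 sets, adjusted over 26). Without the B6xC3H or the B6xPWK hybrid 7 of the 26 words passed in place of 12. The NKX2 word, which NKX2-1 recognises, occurred 1.06, 1.18, 0.910, 1.09 and 1.04 times per kb in the lung sets, and 0.520 to 0.631 times (median 0.578) in the other sets. All 5 lung sets lay above all others, at 1.83 times their mean (exact permutation p = 6.4e-05, the smallest this design can give, adjusted p = 0.00034). The AP-1 word, bound by FOS and JUN proteins, had 0.594, 0.637, 0.565, 0.614 and 0.621 per kb in lung and 0.339 to 0.417 (median 0.383) elsewhere, a ratio of 1.58 with the same p. The E-box (0.977 against 0.671 per kb), SOX (AACAATGG, 0.0520 against 0.0360) and RFX half-site (GTTGCCAT, 0.0461 against 0.0347) words also lay above all 15, each with the same exact permutation p. RFX factors regulate genes of cilia.

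The FOX word, bound by forkhead factors, had 0.280, 0.328, 0.262, 0.312 and 0.328 per kb in lung. Its means were 0.258 in liver, 0.150 in kidney and 0.129 in B cells, so the difference lay mostly against kidney and B cells (exact permutation, adjusted p = 0.0014). The KLF/SP word (GGGCGGG, 0.139 against 0.0976 per kb, adjusted exact permutation p = 0.012) and the GRE word (ACANNNTGT, 0.401 against 0.366, adjusted p = 0.0195 in the exact permutation test) were denser too. TEAD, the partner of YAP, was as dense in kidney as in lung, with means of 0.875 and 0.877 per kb, and its call (adjusted exact permutation p = 0.037) was lost when tissues were permuted within hybrids (adjusted p = 0.066). The same happened to C/EBP (TTGCNNAA, 0.723 against 0.535 per kb, exact permutation adjusted p = 0.024, within hybrids 0.053) and MEF2 (CTATTTATA, 0.0190 against 0.0146, exact permutation adjusted p = 0.043, within hybrids 0.066). The C/EBP word had 0.647 to 0.758 per kb in the liver sets, within the 0.645 to 0.788 of the lung sets. HNF4 (CAAAGTCCA) was the sparser word, at 0.00879 per kb in lung against 0.0546 in liver and 0.0618 in kidney (exact permutation adjusted p = 0.022), but B cells were as low, at 0.00960.

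**Figure D5:**
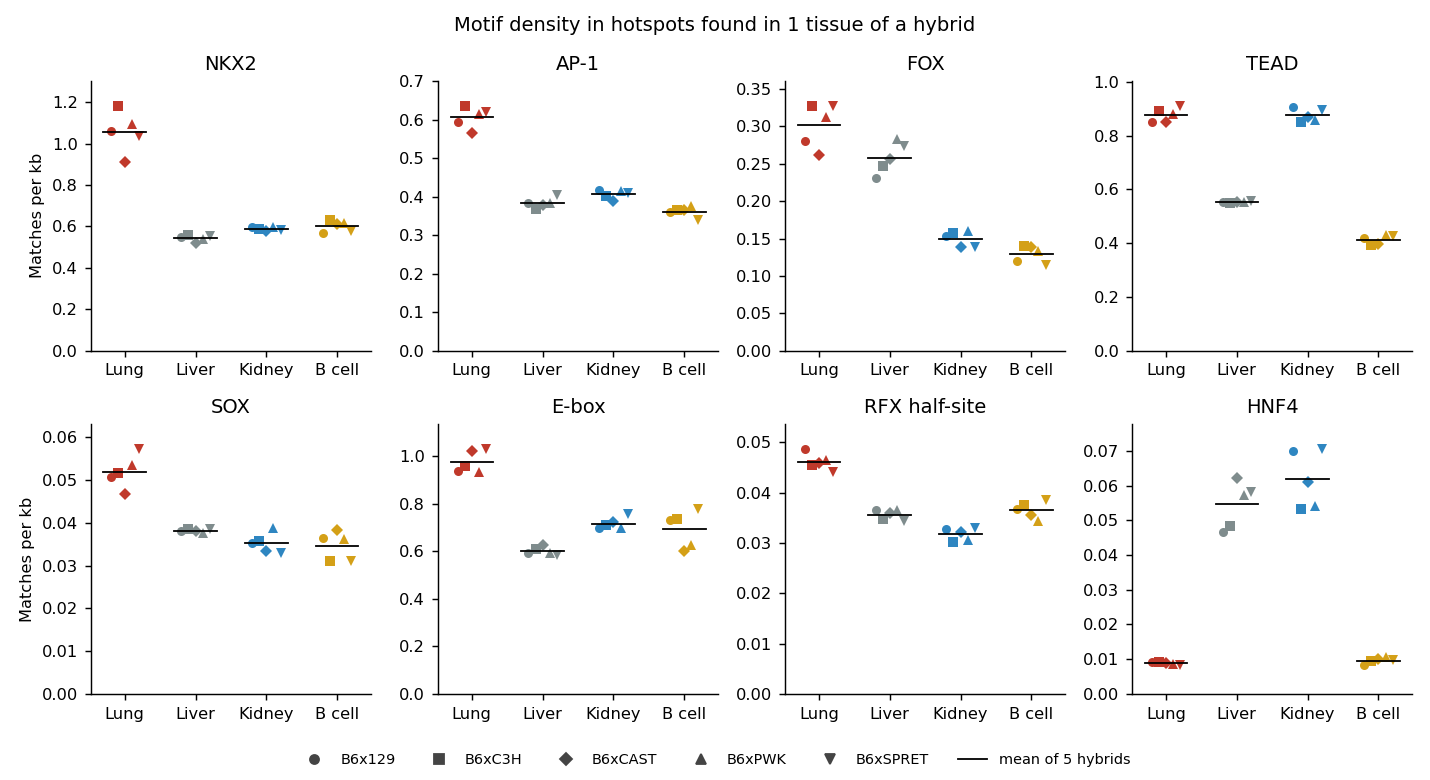
Matches per kb of 8 words in hotspots found in 1 tissue of a hybrid, each point 1 pooled set (symbol, hybrid) and each line the mean of 5 hybrids. The 5 lung sets lie above all others for NKX2, AP-1, SOX, E-box and RFX, share the level of kidney for TEAD and the level of B cells for HNF4.

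The words were also read in the central 150 bp of the lung-only regions, as a description. The NKX2 word stood in 21.4% of the 10744 windows, against 7.04% of liver-only, 8.22% of kidney-only and 8.06% of B cell-only windows and 8.93% of all regions. AP-1 stood in 10.2% (6.33% of all regions), TEAD in 15.7% (9.56%, and 14.9% of kidney-only) and FOX in 6.15% (3.12%, and 5.47% of liver-only). C/EBP stood in 12.5% of lung-only and 14.1% of liver-only windows. PU.1, a myeloid and B cell factor (GAGGAAGT), stood in 1.40% of lung-only and 8.71% of B cell-only windows. The GC content of the windows was 46.6% in lung-only, 45.4% in liver-only, 46.4% in kidney-only and 46.8% in B cell-only regions.

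The plain properties of the tissue-restricted hotspots did not set lung apart. Of 10 properties, 0 passed the exact permutation test after adjustment, and 2 had an unadjusted p under 0.05. The share overlapping a CTCF hotspot of embryonic stem cells was 1.99% ± 0.23 (SD, n = 5) in lung against 4.42% ± 1.72 (n = 15) (exact permutation p = 0.0064, adjusted 0.064), and CpG dinucleotides numbered 12.8 ± 0.63 against 11.2 ± 1.31 per kb (exact permutation p = 0.020, adjusted 0.10). Such hotspots made up 32.4% ± 2.8 of the lung sets and 35.7% ± 6.0 of the others.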

How the data were processed

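DNase-seq hotspots of 138 libraries (28 of lung) were used. Per the study's methods, reads were aligned with BWA to mm10, libraries of a strain and tissue were pooled, and the authors called hotspots with hotspot2 at an FDR of 5%. The deposited files give each hotspot's interval and the −log10 of its FDR, which the authors capped at 100. For RNA-seq, the authors mapped reads with STAR, and the deposited tables hold RSEM expected counts and TPM per gene, used here as a description chosen after the files had been seen. Trimmomatic is also named in the submitters' processing notes.

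The 20 adult sets were analysed on autosomes with Python 3.11.15, pandas 2.3.3, numpy 2.4.6, pyfaidx 0.9.0.4 and matplotlib 3.10.9. Hotspots overlapping by 1 bp or more were merged into regions. Starts counted as open where a hotspot met the 500 bp on each side. Loci (body with 10 kb on each side, a mean of at least 200 scaled bp) were tested with limma 3.58.1 in R 4.3.3 on log2(scaled bp + 250), with Benjamini-Hochberg adjustment, and a fold on this scale understates the change of low loci. On simulated data for the 18129 loci the fit recovered 89.5% of loci changed by 1 on the log2 scale, and 5.79% of its calls were false. Motifs and properties were compared by exact permutation over sets.

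The members and gene lists were chosen with earlier results of these data known. Named genes were the list genes, the 15 loci with the largest difference in each direction, the 15 genes with most lung-only regions, the 10 richest windows, the 20 widest lung-only starts, the lung-lacking starts, and the 10 widest lung-only and lung-lacking regions. RefSeq promoters (GRCm38.p6) matched 14 of 26 named genes. Alternatives were scaling, pseudocount, flank, filter, FDR, merging, hybrid block and each hybrid left out. Sex chromosomes and allele-level tables were not used here, and values of some named genes and regions are not reported here.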

Additional observations from a re-analysis of the deposited data

Results flagged for a closer look

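Among 73 groups of values examined for a sample far from the others, 3 stood out, and chance alone flags about 1 group in 20. The density of the EBF word in tissue-restricted lung hotspots was 0.191 per kb in B6xCAST beside a lung median of 0.149. The GC content of these hotspots was 48.7% in B6xCAST beside a lung median of 46.9%. The TPM of Scgb1a1 was 575 in 1 lung RNA library beside a median of 236 over the 4. B6xCAST was also the lung set with most hotspots (273104).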

How the results depend on the processing

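All 495 alternative fits of 33 named loci kept their direction and their call. Most of these were the 15 loci with the largest difference in each direction in these same data, so little is read from their stability. The rest were the markers Sftpc, Scgb1a1 and Tbx4. The loci with more hotspot length in lung, 4123 at first, fell to 1995 without scaling (3315 lower) and to 2585 when hotspots were counted (3429 lower), so higher loci made up 37.6% and 43.0% of the calls in place of 46.1%. Of the 175 called list genes, 40 lost the call without scaling and 48 when hotspots were counted, and the sign turned for Inmt and Sox2 in the latter. With the 75000 highest-scoring hotspots of each set it turned for Gatm, Itgax and Sox9. With a flank of 2 kb it turned for Actg2, Gli1 and Inmt, and with 50 kb for Cd3d, Cxcr2, Elf5, Inmt, Msln, Rsph1 and Tbx21.

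Lung-only regions numbered 19023 when hotspots were not merged. Lung-lacking regions, 2.40 per 100 Mb of the autosomes at first, came to 5.24 per 100 Mb then and to 4.71 with the 75000 highest-scoring hotspots, which left 6 genes with a lung-lacking start, while 200 bp on each side left 1. Over all hotspots of a set, 7 motifs and 1 property (median width) passed. Leaving out each hybrid in turn gave 3497 to 3849 higher and 3941 to 4785 lower loci, 11514 to 15890 lung-only regions, 67 to 107 lung-lacking regions (2.72 to 4.34 per 100 Mb), 146 to 184 genes with a lung-only start and 2 to 3 with a lung-lacking start, 7 to 9 motifs and 0 to 1 properties (CpG per kb without B6xSPRET). Leaving out each lung RNA library gave 14 to 17 genes. Counts of regions, starts and RNA genes can only stay or rise when a hybrid or library is left out, because fewer sets or libraries must meet the rule. The cause of the other shifts was not tested. AP-1, NKX2, FOX, SOX, E-box and RFX half-site passed under every alternative run, and TEAD, C/EBP, HNF4, GRE, MEF2 and KLF/SP did not.

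The deviations of same-hybrid sets from their tissue means correlated at a mean of 0.120 (-0.023 to 0.297, and -0.030 between different hybrids), and since not every pair correlated, the block was kept as an alternative, although sets of a hybrid share their genotype. With hybrid as a replicate block, 4263 loci were higher and 5088 lower, none of the called list genes lost its call, and 9 motifs passed. The calls of TEAD, C/EBP and MEF2 were lost under the block. Read depth was not used here, and the pooled sets hide the spread between libraries.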
